A study of Mus musculus with 10 samples.

Results

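Mouse embryonic stem cells of the Mbd3cΔN-ab KO genotype were compared with wild type E14 cells by RNA sequencing, and the deposited table of that comparison lists 6000 genes, of 8694 genes listed in any of the 4 mutant tables of the series. E14 is an established embryonic stem cell line, grown here on gelatin-coated plates. The mutant was derived from E14 by CRISPR/Cas9 cutting in exon 2 of Mbd3, and its labelled genotype (Mbd3cdeltaN; ab-/-) combines loss of isoforms a and b with an N-terminal deletion of isoform c. The labels do not say how far the deletion extends. Every listed gene was taken, with no selection on its value beyond that of the authors. Each group held 2 libraries, labelled as biological replicates. The labels leave unsaid whether the mutant libraries are separate clones, and p-values then measure only the spread between these libraries.

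Mbd3 belongs to the methyl-CpG-binding-domain proteins and holds the histone deacetylase and remodelling parts of the NuRD complex together. NuRD couples nucleosome remodelling by Chd4 to histone deacetylation by Hdac1 and Hdac2, and in embryonic stem cells it is known for tuning pluripotency genes and for its role in leaving the pluripotent state. By the series title, the study asked how an embryonic stem cell form of NuRD works through Wdr5, a subunit of the COMPASS methyltransferases that place methyl groups on lysine 4 of histone H3.

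Values are normalized read counts per gene (reads divided by the authors' size factors), called levels here. They are not divided by transcript length, so levels of different genes are set side by side only per kilobase. The listed genes held 4755302 and 7468853 reads in the wild type libraries and 4217977 and 6323536 in the mutant libraries. A ratio is the mean level in the mutant over that in wild type, on the log2 scale unless given as a fold, and was computed where each group had more than 3 reads. The median absolute log2 difference between the 2 libraries of a group was 0.13 in wild type and 0.24 in the mutant over the called genes, against 0.94 between the groups. All 6000 genes have groups that do not overlap (100% of the listed genes); only genes with an adjusted p up to 0.0505 are listed, so nothing is read from this count.

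At an adjusted p under 0.05 in the authors' deposited DESeq2 table, 5989 genes were called, which is 41.5% of the 14429 genes tested. Of these, 3051 were higher in the mutant (21.1% of the genes tested) and 2938 were lower (20.4%), so that 50.9% of the called genes were higher. Higher genes moved further than lower genes: 1655 were at least 2-fold higher (11.5% of the genes tested) and 990 at least 2-fold lower (6.86%), and 459 against 116 passed 4-fold. The median log2 ratio over called genes was 0.35, with quartiles at -0.82 and 1.07. Ratios near 0 are rare among called genes, and without the second wild type library the median was -0.24, with 49.9% of the ratios above 0. Single genes ranged from -6.29 to 6.19. Leaving out 1 library and refitting DESeq2 gave 1037 higher and 596 lower without the first wild type library and 1013 and 656 without the second. It gave 1774 and 1773 without the first mutant library and 1841 and 1957 without the second.

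**Figure D1:**
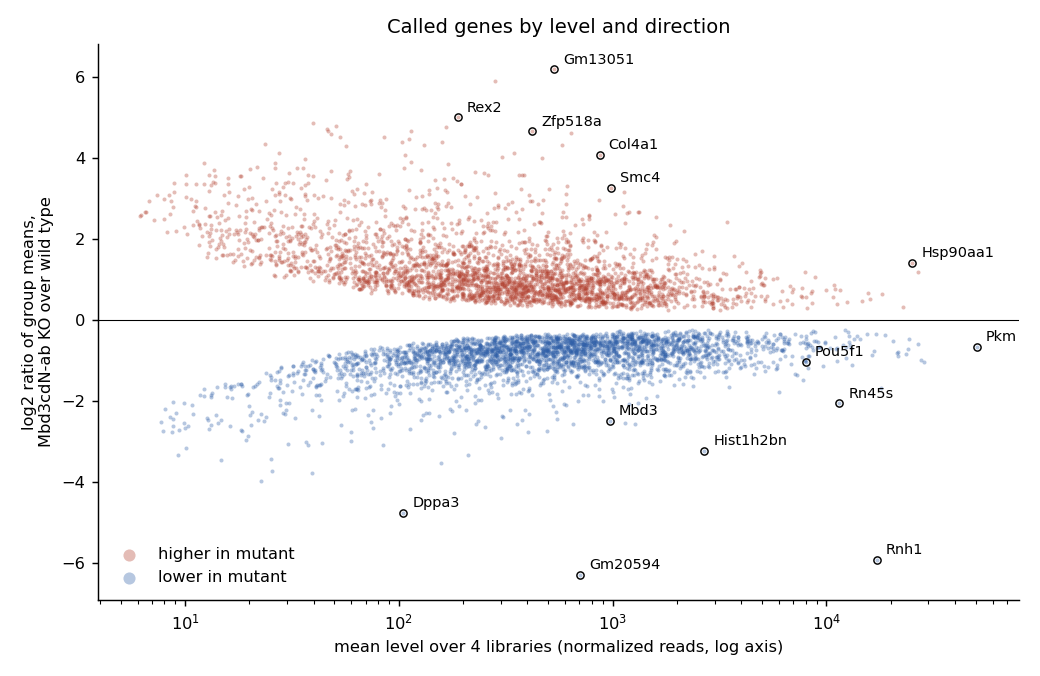
Log2 ratio of group means (mutant over wild type) against the mean level over 4 libraries in normalized reads (log axis), 1 point per called gene with a ratio, red higher and blue lower in the mutant. Ratios run from -6.29 (Gm20594) to 6.19 (Gm13051) and spread less at the right, where Pkm lies at -0.66 and Hsp90aa1 at 1.42.

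The balance of directions followed expression level. The called genes were divided into 4 classes of equal size by mean level. In the lowest class (up to 139 normalized reads) 64.1% were higher in the mutant with a median log2 ratio of 1.09. The 2 middle classes had 52.97% and 49.63% higher, and in the top class (above 913 normalized reads) 37.1% were higher with a median of -0.48. The size of change fell along the same axis, from a median absolute log2 ratio of 1.47 in the lowest class to 0.72 in the top class. The within-group library difference shrank as well, from 0.29 to 0.09 in wild type and from 0.41 to 0.19 in the mutant. A call needs a larger ratio where fewer reads were counted, so small changes of weakly expressed genes were not detectable at this depth.

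Mbd3, the targeted gene, stood at 1685 and 1614 normalized reads in wild type and at 300 and 292 in the mutant, a log2 ratio of -2.48 with little spread in either group. The authors' deposited DESeq2 values for Mbd3 are a log2 fold change of -2.44 with an SE of 0.13 and an adjusted p of 1.02e-74. Reads were counted per gene and not per isoform, so the remaining Mbd3 signal is not assigned to isoform c here. In the tables of the other lines, which use the same wild type libraries, the log2 ratio of Mbd3 was -1.39 in Mbd3ab KO, also cut in exon 2, and -3.70 in Mbd3abc KO, cut in exon 5.

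Of 18 NuRD subunit genes looked for, 6 were called, 2 higher and 4 lower, a smaller share than the 41.5% called among all tested genes. Here and for the other lists, members that were not tested are counted in the number looked for. Chd4, the remodelling ATPase, had levels of 10104 and 10261 in wild type and 5803 and 7515 in the mutant (log2 ratio -0.61). Its paralog Chd3 fell further, from 662 and 617 to 260 and 305 (-1.18), and Sall4, a zinc finger factor that binds NuRD in these cells, had a log2 ratio of -0.58. The deacetylase gene Hdac2 was about 2-fold higher, at 712 and 775 in wild type and 1509 and 1530 in the mutant. Mbd2, which occupies the place of Mbd3 in an alternative NuRD complex, rose from 56.2 and 57.7 to 130 and 144 normalized reads (log2 ratio 1.27).

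Of 19 genes of Wdr5 and the COMPASS complexes, 9 were called (41.5% of all tested genes were), 4 higher and 5 lower, with a median log2 ratio of -0.41. Wdr5 itself changed little, with 3047 and 2942 normalized reads in wild type and 3725 and 3743 in the mutant (log2 ratio 0.32, authors' deposited DESeq2 adjusted p 0.00399). Dpy30, another core subunit, rose by 0.74, and the H3K27 demethylase gene Kdm6a by 0.58. Of the large catalytic subunit genes in the list, only Kmt2d, Setd1b and Kmt2b were called, all lower. Kmt2d fell from 6618 and 6301 to 3034 and 3304, and Setd1b and Kmt2b had log2 ratios of -0.88 and -0.77. Hcfc1 (-0.56) and the CpG-binding subunit gene Cxxc1 (-0.41) fell by less.

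The deepest falls came from a mixed group. Rnh1, encoding the cytosolic inhibitor of RNase A enzymes, dropped from 42229 and 25669 normalized reads to 653 and 472 (log2 ratio -5.92), and the short gene Gm20594 from 1652 and 1122 to 22.9 and 12.7 (-6.29). The RNA component of telomerase, Terc, was at 679 and 729 in wild type and at 155 and 54.2 in the mutant. Other genes at or above the median level with the largest falls were Hist1h2bn (-3.23), Hist1h2bp (-2.73), the kinase gene Jak3 (-2.57), the linker histone gene H1fx (-2.46), the neuronal filament gene Ina (-2.44) and the stress-induced pseudokinase gene Trib3 (-2.31). Rnh1 and Gm20594 had log2 ratios of -6.07 and -5.59 in the Mbd3abc KO table, and neither is listed for Mbd3ab KO or Mbd3c KO.

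The largest rises at or above the median level included several genes of chromosome structure and segregation beside zinc finger and basement membrane genes. Gm13051, a member of a zinc finger cluster on chromosome 4, rose from 23.2 and 5.45 to 670 and 1425 normalized reads (log2 ratio 6.19). Arhgap5, encoding a GTPase-activating protein, rose from 55.0 and 45.2 to 1127 and 1320 (4.61), and Zfp518a from 40.3 and 23.4 to 758 and 862 (4.67). For both genes each mutant library was far above each wild type library.

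Casc5 (4.01) and Cenpe (3.32), which encode a kinetochore scaffold and a kinetochore motor, were in the same set of 12. Smc4, a condensin ATPase, rose from 206 and 164 to 1511 and 2043, and Smc6 of a related complex by 3.23. Col4a1 and Col4a2, neighbouring genes for collagen IV of basement membranes, rose together but unevenly. Col4a1 was at 104 and 89.6 in wild type and at 2598 and 690 in the mutant (4.09), and Col4a2 at 50.1 and 68.6 against 1162 and 262 (3.58). The first mutant library exceeded the second several-fold for both genes, more than for the other genes plotted among the largest rises.

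**Figure D2:**
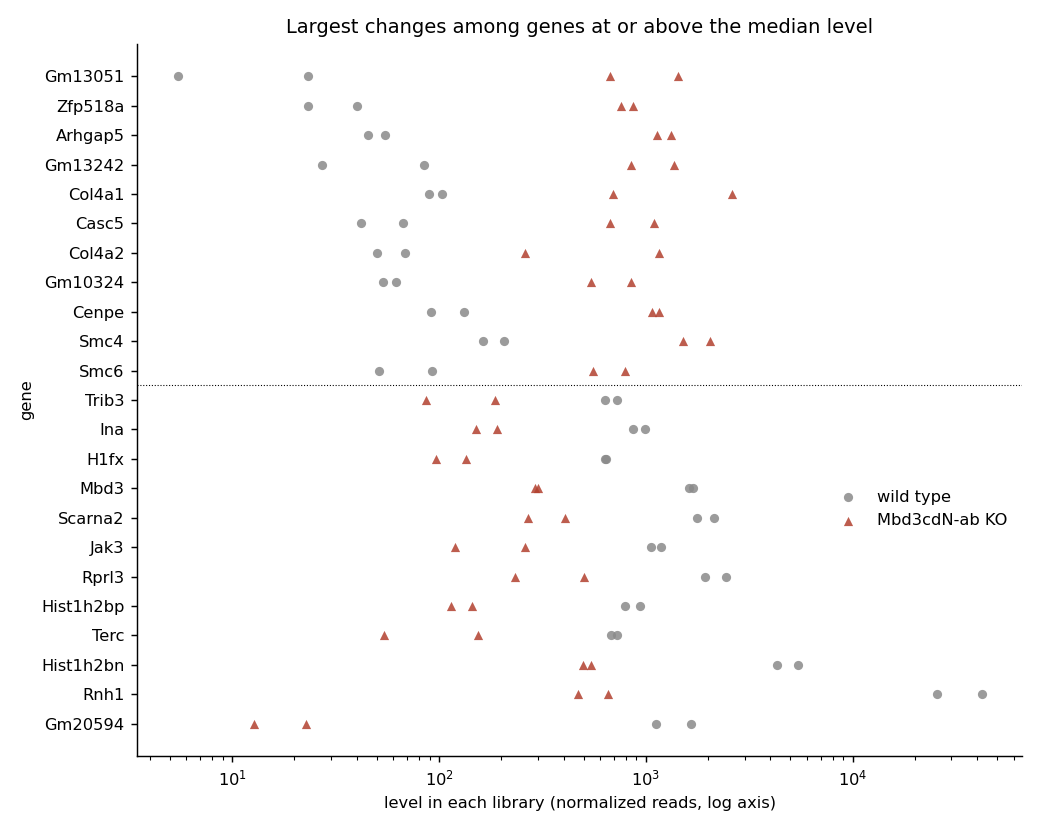
Level in each library (normalized reads, log axis) for genes of highest and lowest ratio among called genes at or above the median mean level (1 gene is not shown), grey circles for the 2 wild type and red triangles for the 2 mutant libraries. The groups do not overlap for any gene shown, as the selection requires, and Col4a1 and Col4a2 have the mutant libraries furthest apart.

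In some places neighbouring listed genes changed together. Runs were defined as 3 or more consecutive listed genes, each within 500 kb of the last, all changed at least 4-fold in the same direction. There were 16 runs with 71 genes, 15 of them higher and 1 lower. The 68 genes in higher runs made up 14.8% of all genes that were at least 4-fold higher, and 29 of them carry a Zfp symbol, the name of C2H2 zinc finger genes, many of which encode repressors that silence transposable elements. The median GC content of their transcripts was 38.2%.

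The longest run lay on chromosome 4 (mm10 146097312 to 147809788) and held 11 genes with log2 ratios from 3.35 to 6.19. In it, Rex2 rose from 13.4 and 9.36 to 245 and 487 normalized reads, Gm13154 from 14.7 and 3.89 to 437 and 670, and Zfp600 from 13.4 and 3.89 to 167 and 270. A run of 8 genes on chromosome 2 included Zfp931 (4.59) and Gm14322 (3.63). Chromosome 17 carried 4 runs with 19 genes, among them Zfp820 (4.72), Zfp945 (4.32) and Zfp51 (3.68), and chromosome 13 carried 3 higher runs with 11 genes, led by Zfp712 (3.16) and AA987161 (3.16).

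Wild type levels in the higher runs were low, at most 80.1 normalized reads on average (Zfp936), so most ratios rest on few wild type reads. The zinc finger genes among them have close paralogs, and reads that fit several copies may have been divided among these, so their single values are uncertain. Other members, such as Fbp2, Lix1 and Phactr3 and the X chromosome run with Rnf128 and Tbc1d8b, are not zinc finger genes. All 68 were also listed as higher in the Mbd3abc KO table, which shares the wild type libraries, against 3 in Mbd3ab KO and 0 in Mbd3c KO. Those tables differ in size, with 8141, 443 and 38 genes listed in all, and nothing is read from the contrast of these counts. The only lower run held 3 histone genes of chromosome 13, of which Hist1h4m and Hist1h4n overlap, so their reads cannot be told apart.

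**Figure D3:**
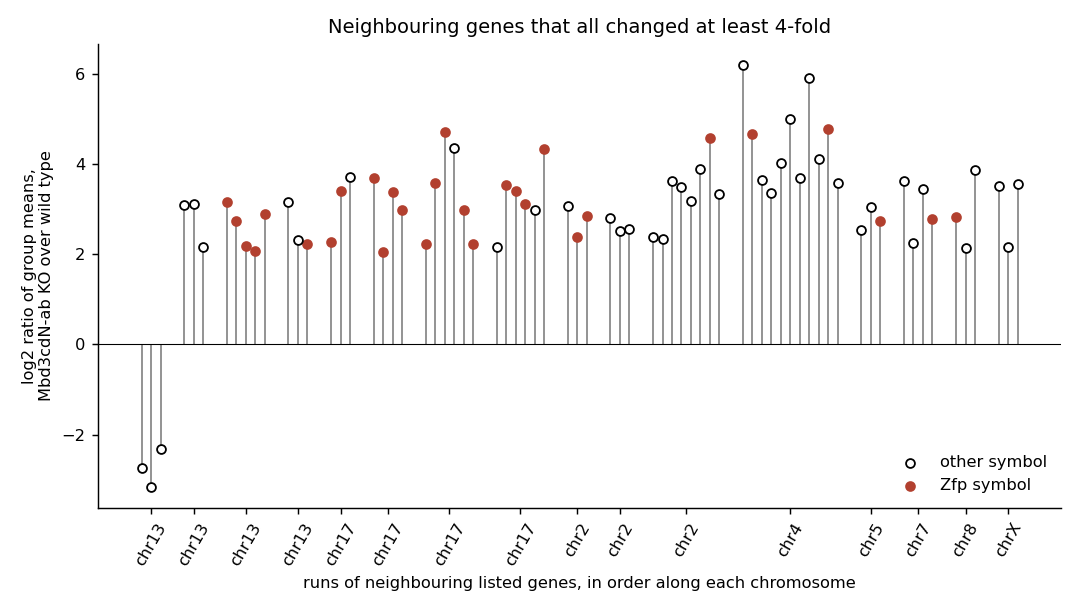
Log2 ratio of each gene in the 16 runs of neighbouring genes, grouped by run and ordered along each chromosome, filled circles for genes with a Zfp symbol and open circles for the rest. In 15 runs every gene was at least 4-fold higher in the mutant, with the chromosome 4 run reaching 6.19, and the single lower run is made of histone genes.

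Across the whole Zfp family 168 of 485 genes were called, a smaller share than the 41.5% of all tested genes, 127 higher and 41 lower, with a median log2 ratio of 1.22. Outside the runs, Zfp771 (-2.41) was the lowest. The direction followed transcript GC content, for which the called genes were divided into 5 classes of equal size. Among family members in the class of lowest GC, 102 were higher and 0 lower, and in the class of highest GC 0 were higher and 19 lower. The corresponding shares higher over all called genes were 99.1% and 6.15%. Trim28, the corepressor that zinc finger repressors of this family recruit, was lower, at 39380 and 36998 in wild type and 15456 and 22133 in the mutant (log2 ratio -1.02).

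Replication-dependent histone genes were lower without exception among the called members. Of 67 such genes looked for, 40 were called (41.5% of all tested genes were). All 40 were lower, with a median log2 ratio of -1.38 and a range from -3.76 to -0.52. Their messages are not polyadenylated and end in a conserved stem-loop that binding proteins recognize. The stem-loop and the bases beside it are shown for 5 members that span the range, from GENCODE M21 transcripts (GRCm38), 5′ to 3′, with the 16 bases of the stem-loop in capitals.
Hist1h2ad: acaaaGGCTCTTTTCAGAGCCatcca
Hist1h2bp: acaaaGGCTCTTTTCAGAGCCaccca
Hist1h4i: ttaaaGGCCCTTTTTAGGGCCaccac
Hist1h1c: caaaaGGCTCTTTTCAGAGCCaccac
Hist1h3c: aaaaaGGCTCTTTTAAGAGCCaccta

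The motif searched, on the transcript strand alone, had 16 bases: GG, 3 free bases, TT, a free base, T, a free base, A, 3 free bases and CC, with the first 6 bases complementary to the last 6. It was found in 28 of 39 called histone genes with a matched transcript (71.8%) and in 8 of 5893 other called genes (0.136%). A missing match says only that these letters are not in that transcript model. The fall was shared by every histone type: the median log2 ratio was -1.05 for 5 H1 genes, -1.78 for 6 H2A genes, -1.60 for 13 H2B genes, -1.13 for 7 H3 genes and -1.17 for 9 H4 genes. The 13 H2B genes include the pseudogene Hist3h2bb-ps.

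Summed over the 40 genes, the level was 112672 and 95208 in wild type and 52057 and 37068 in the mutant, so the groups were well apart. Hist1h2bn, the most changed abundant member, went from 5429 and 4292 to 544 and 495. Hist1h2ad, lowest of all, went from 58.6 and 87.3 to 4.81 and 5.93, while Hist1h1a fell only from 8056 and 6909 to 5880 and 4571. Histone copies have near-identical coding sequence, so single members may share reads. Histone genes fell in each of the 5 GC classes, including the lowest 2 classes, where 4 of 4 were lower and at least 93.0% of all called genes were higher. Of variant histone genes, H3f3a (0.80) and H2afv (0.55) were higher and H2afx (-1.14) and H1fx (-2.46) lower.

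Small and structured RNA genes were mostly lower. Of 14 called snoRNA and scaRNA genes 10 were lower (median log2 ratio -1.42), of 13 called miRNA hairpins 11 were lower (median -1.64), and Rn45s, Terc, Rprl3 and Rnu73b were all lower. Rn45s, the precursor of ribosomal RNA, was at 20165 and 16897 in wild type and at 6111 and 2836 in the mutant. Ribosomal RNA was removed before library making with kits from 2 makers, and the labels do not tie kits to libraries, so biological and depletion differences in Rn45s cannot be told apart. Scarna2, a guide RNA of the Cajal body, fell from 2139 and 1764 to 407 and 270, and Rprl3, a copy of the RNase P RNA, from 2430 and 1936 to 501 and 234.

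Box C/D snoRNAs guide ribose methylation and box H/ACA snoRNAs guide pseudouridylation of ribosomal RNA. 4 snoRNAs with large changes, 2 in each direction, are shown from GENCODE M21 transcripts (GRCm38), 5′ to 3′. Capitals mark the last CTGA of a C/D snoRNA (the D box), its TGATGA where present (within the C box), and the last ACA of an H/ACA snoRNA.
Snord33: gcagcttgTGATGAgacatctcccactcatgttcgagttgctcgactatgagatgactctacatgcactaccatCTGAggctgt
Snord1a: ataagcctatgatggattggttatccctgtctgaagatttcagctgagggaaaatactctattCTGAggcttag
Snord2: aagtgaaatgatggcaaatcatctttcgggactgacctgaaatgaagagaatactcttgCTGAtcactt
Snora23: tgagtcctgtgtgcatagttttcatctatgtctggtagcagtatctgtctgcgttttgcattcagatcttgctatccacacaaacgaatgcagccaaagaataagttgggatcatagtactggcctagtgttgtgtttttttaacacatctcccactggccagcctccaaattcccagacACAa

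Snord33 (chromosome 7, mm10 45126864 to 45126945) fell from 26.9 and 16.4 normalized reads to 3.61 and 4.24 (log2 ratio -2.46). Snord1a fell from 12.2 and 17.9 to 3.61 and 2.54. Snord2 (chromosome 16, mm10 23108953 to 23109020) rose from 6.11 and 7.80 to 28.9 and 33.9 (2.17), and Snora23 from 88.0 and 88.9 to 344 and 204. Snord34 was also higher (1.49), although it and Snord33 belong to the same host gene, Rpl13a. Snord33, Snord1a and Snord2 overlap exons of listed genes that moved the same way, Rpl13a (-0.53), 1810032O08Rik (-1.14) and Eif4a2 (0.88). Reads of these 3 snoRNAs cannot be told apart from those of the host. Snora23 and Snord34 overlap no such exon. The Snord33 and Snord1a ratios rest on few mutant reads.

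Many of these entries lie inside exons of other genes. Of 29 listed noncoding entries of at most 250 bases, 19 overlap an exon of another gene on the same strand in GENCODE M21, and 11 of those an exon of a listed gene, which moved the same way in 10 cases. Mir686, for example, lies in an exon of Psmb5, and both were lower (-1.13 and -1.31). Reads of the host message and of the small RNA cannot be told apart there. Mir6904 was the exception, higher by 1.42 while its host Parp1 was lower by 0.53 on the same scale.

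Mir291a and Mir291b overlap no such exon. They belong to the miR-290 cluster, an abundant miRNA family of mouse embryonic stem cells. Their mature 3p forms, from RefSeq (GRCm38), 5′ to 3′ with the seed (bases 2 to 8) in capitals, show that the seeds differ only at the last base, while the 5p seeds are the same.
mmu-miR-291a-3p: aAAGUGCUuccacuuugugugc
mmu-miR-291b-3p: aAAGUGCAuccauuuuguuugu
mmu-miR-291a-5p: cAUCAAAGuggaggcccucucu
mmu-miR-291b-5p: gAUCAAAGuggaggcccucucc

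The Mir291a entry (chromosome 7, mm10 3218919 to 3219000) was at 24.4 and 29.6 normalized reads in wild type and at 2.41 and 2.54 in the mutant, from 5 mutant reads in all (log2 ratio -3.45). Mir291b (chromosome 7, mm10 3219482 to 3219560) was at 73.3 and 60.8 against 30.1 and 39.8 (-0.94). These reads come from the primary transcript or hairpin and not from mature miRNAs, which such libraries do not keep.

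Longer noncoding genes went the other way. Of 72 other called noncoding RNA genes 47 were higher (median log2 ratio 1.16), and of 33 called pseudogenes 25 were higher (1.26), against 50.8% of 5853 called protein-coding genes. Their median levels were low, at 54.1 and 130 normalized reads. In the lowest level class of all called genes 64.1% were higher, with a median of 1.09. A part of RNA class apart from level was not tested. Gm17066 rose from 17.1 and 27.3 to 230 and 407, and A630089N07Rik by 2.50, while 2810008D09Rik fell by 1.70. Malat1, a nuclear noncoding RNA, changed by 0.33 from levels of 19371 and 21258.

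Pluripotency genes that were called were largely lower, and Nanog, Sox2, Zfp42, Dppa5a and Tdgf1 were not listed. Of 28 core and general pluripotency genes 15 were called (41.5% of all tested genes were), 13 lower and 2 higher. Their median log2 ratio was -0.88, where all called genes had 50.9% higher and a median of 0.35 (-0.24 without the second wild type library). By GC class from lowest to highest, 1 of 1, 1 of 2, 0 of 2, 0 of 5 and 0 of 5 members were higher. Over all called genes the shares were 99.1%, 93.0%, 41.7%, 14.2% and 6.15%. Pou5f1, which encodes Oct4, was at 10315 and 11133 in wild type and at 3973 and 6551 in the mutant (log2 ratio -1.03, authors' deposited DESeq2 adjusted p 0.00169). Dppa3, a maternal and germ cell factor, was nearly lost, from 182 and 223 to 4.81 and 10.2 (-4.76). Mycn (-1.58), Tdh (-1.21), Utf1 (-0.88), Lin28a (-0.81) and Esrrb (-0.65) were lower too.

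The 2 that rose were Rif1, a regulator of replication timing, from 1275 and 878 to 4985 and 6601, and the repressor gene Zfp281 from 346 and 341 to 1255 and 1380. Naive-state genes were divided, with 6 higher and 9 lower of 15 called. The list also holds genes of LIF signalling, such as Jak3 (-2.57) and Jak2 (1.66), and Rex2 (5.01) of the chromosome 4 run. Klf2 (-1.18) and Nr0b1 (-1.48) fell, whereas Tbx3 (1.02), Klf5 (0.56) and Klf4 (0.44) rose. Otx2, a factor of the formative state, rose from 246 and 263 to 1061 and 863, and Lef1 (-2.24) and Zic2 (-1.74) of the same list fell, which left 6 higher and 6 lower.

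Markers of cell types were read from the listed genes alone, and of all tested genes 41.5% were called. Of the 11 stem cell markers 6 were listed, and their summed level was 43706 and 44144 in wild type and 25017 and 30181 in the mutant. For trophoblast, 3 of 7 markers were listed, with summed levels of 161 and 202 against 728 and 418. Krt8 (1.81) and Eomes (1.76) rose and Hand1 (-2.71) fell. Of 8 primitive endoderm markers 3 were listed, summing to 3552 and 3145 against 4525 and 2311, so that the groups overlapped while Col4a1 and Col4a2 rose and Lama1 fell by 1.59. Neural markers were lower in 4 of 4 listed cases, with Pax6 at 18.3 and 16.4 against 1.21 and 4.24. Of the 7 feeder fibroblast markers Vim (-1.32) and Col1a1 (-1.36) were lower and Thy1 (1.09) higher, and no mesoderm or 2-cell marker was listed. In bulk RNA, fewer cells of a type and less RNA per cell cannot be told apart.

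Germline genes were more often higher, 14 of 21 called with a median of 1.07. By GC class from lowest to highest, 9 of 9, 2 of 3, 3 of 6, 0 of 2 and 0 of 1 were higher. Over all called genes the shares were 99.1%, 93.0%, 41.7%, 14.2% and 6.15%, so the leaning is not read as a trait of this list. Dazl, an RNA-binding regulator of germ cells, rose from 14.7 and 14.8 to 206 and 189 (3.74), Tex15 from 7.33 and 1.56 to 103 and 99.9, and the meiotic cohesin gene Smc1b from 6.11 and 5.45 to 81.8 and 57.6. Against them, Nanos3 (-3.07) and Tex19.1 (-2.36) fell. Among trophectoderm and placenta genes, with 5 higher and 6 lower, the homeobox gene Rhox5 had one of the deepest falls, from 274 and 308 to 20.5 and 29.6 (-3.54).

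Epithelial and adhesion genes rose in 15 of 21 called cases, with a median of 0.75. Dsc2, a desmosomal cadherin, rose from 8.55 and 10.1 to 337 and 56.7 (4.40), with the first mutant library far above the second. Lamb3 (2.48), Marveld2 (1.78) and Cldn7 (1.33) rose and Esrp2 (-1.63) fell. Extracellular matrix and integrin genes went mainly the other way, with 12 higher and 22 lower (median -0.67), among them Adam19 (-1.60) and Fbln1 (-1.38).

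Called genes of the Notch, Wnt and FGF lists were more often lower than higher. Notch genes were lower in 15 of 19 called cases (median -0.87): the ligand gene Dll1 fell from 202 and 101 to 8.42 and 27.1 (-3.09), Jag1 by 1.48 and Lfng, which modifies the receptor, by 1.69, while the target gene Hey2 rose by 2.46 from 2.45 and 7.02 normalized reads. Wnt genes were lower in 17 of 25, including the receptor genes Fzd2 (-1.91) and Fzd9 (-1.04), with Wnt6 (2.03) and Apc (1.49) higher. In FGF and MAP kinase signalling 15 of 24 were lower. Fgf17 fell from 422 and 348 to 6.02 and 71.1 (-3.32), and Rasa1 (1.73) was higher. Notch genes higher per GC class, lowest first, were 1 of 1, 3 of 3, 0 of 2, 0 of 4 and 0 of 9. For Wnt these were 1 of 1, 4 of 4, 2 of 5, 0 of 3 and 1 of 12. For FGF and MAP kinase they were 5 of 5, 3 of 3, 0 of 3, 0 of 6 and 1 of 7. All called genes had shares of 99.1%, 93.0%, 41.7%, 14.2% and 6.15% higher, so the leanings are not read as traits of these lists.

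In TGF-beta, Nodal and BMP signalling 12 of 19 were higher, with the receptor genes Acvr2a (1.70), Bmpr2 (1.47), Tgfbr3 (1.43) and Tgfbr1 (1.42) at the top. The receptor gene Acvr2b (-0.84) was lower. At the low end of the list were the ligand genes Inhbb, at 659 and 632 against 48.1 and 227 (-2.23), and Lefty1 (-1.59), while Lefty2 (0.62) was higher. Jak and Stat genes were balanced, 8 higher and 9 lower, with Jak3 (-2.57) and Socs4 (1.80) at the ends and Jak2 at 1.66. Of 15 called interferon and innate immune genes 11 were lower, led by Ifitm3 (-2.12), and B2m (1.87) was higher.

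Targets of p53 were higher in 13 of 19 called cases (median 0.99). Members higher per GC class, lowest first, were 6 of 6, 2 of 3, 5 of 6, 0 of 1 and 0 of 3. All called genes had 99.1%, 93.0%, 41.7%, 14.2% and 6.15% higher. Whether the list departs from these shares was not tested. Pmaip1, which encodes Noxa, rose from 59.9 and 57.7 to 363 and 285 (2.46), Ccng1 from 616 and 569 to 3269 and 1805 (2.10) and Trp53inp1 by 1.90. Trp53 itself was lower by 0.45 on the log2 scale, and Ccnd2, which encodes cyclin D2 and also counts among cell cycle genes, fell from 422 and 451 to 12.04 and 129 (-2.63).

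Called cohesin and condensin genes were higher nearly throughout. Of 21 cohesin and condensin genes 17 were called (41.5% of all tested genes were), 16 higher and 1 lower, with a median of 1.35. Nipbl, the cohesin loader gene, rose from 319 and 253 to 1560 and 1969 (2.63), and Smc2 (2.68) and Stag2 (2.35) rose with it. Ncaph2 was the lower member (-0.87). All 16 higher genes lie in the lowest 2 GC classes, where 99.1% and 93.0% of all called genes were higher, and Ncaph2 in class 4 of 5. Kinesin genes showed the same leaning, 11 of 15 higher, among them Kif20b at 3.11 and Kif18a at 2.91. So did centrosomal Cep genes (13 of 18, with Cep290 at 4.31). Kinesin genes higher per GC class, lowest first, were 6 of 6, 2 of 2, 2 of 4, 1 of 2 and 0 of 1. For Cep genes they were 4 of 4, 8 of 9, 1 of 2, 0 of 2 and 0 of 1. All called genes had 99.1%, 93.0%, 41.7%, 14.2% and 6.15% higher, so these leanings are not read as traits of the lists.

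Among Polycomb genes 10 of 17 called were higher (median 0.79). By GC class from lowest to highest, 6 of 6, 3 of 3, 1 of 3, 0 of 3 and 0 of 2 were higher. Over all called genes the shares were 99.1%, 93.0%, 41.7%, 14.2% and 6.15%. Bmi1 of Polycomb repressive complex 1 rose from 7.33 and 5.45 to 54.1 and 44.0 (2.94), Suz12 of complex 2 from 970 and 883 to 2394 and 2935 (1.52), and Mtf2 by 1.17. Phc1 (-0.70), Jarid2 (-0.63) and Cbx7 (-0.37) were lower. Of 17 called remodeller genes 10 were higher, with Atrx (2.82), Smarca1 (2.56) and Hells (2.34) at the top and the BAF subunit genes Smarcb1 (-0.92), Arid1a (-0.67) and Smarca4 (-0.56) lower. For DNA methylation, Dnmt3b (-1.01) and Uhrf1 (-0.71) fell and Zbtb33 (1.84) and Tet3 (1.08) rose.

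Metabolic lists differed in direction. In glycolysis and the hypoxia response 21 of 27 called genes were lower (median -0.66), including Tpi1 from 10291 and 10103 to 3890 and 4278 and the glucose transporter gene Slc2a1 (-0.98), while Hif1a (1.01) and Bnip3l (1.02) were higher. Pkm, at 20951 normalized reads per kilobase the highest of the 5 most read lower genes, went from 61401 and 62635 to 38328 and 40361 (-0.66). Cholesterol and fatty acid synthesis had 14 of 19 lower, with Fasn from 27804 and 26884 to 8252 and 8933 (-1.67), and with Idi1 (1.54) and Elovl6 (1.52) higher.

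Tricarboxylic acid cycle genes had 6 higher and 4 lower (median 0.53), from Pck2 (-2.08) to Dld (1.41), and the respiratory chain 19 higher and 21 lower (median -0.35). One-carbon and serine metabolism had 12 of 16 lower, among them Phgdh (-1.24) and Mthfd2 (-1.10). The tRNA synthetases were lower in 16 of 19 cases (median -0.89), for example Sars from 5034 and 5658 to 1180 and 2212 (-1.66). Synthetase genes higher per GC class, lowest first, were 1 of 1, 2 of 2, 0 of 5, 0 of 7 and 0 of 4. All called genes had 99.1%, 93.0%, 41.7%, 14.2% and 6.15% higher. Proteasome genes (16 of 20) and mitochondrial ribosomal protein genes (29 of 39) were mainly lower. Cytosolic ribosomal protein genes were mainly higher (30 of 46, median 0.58), such as Rpl37 from 1137 and 1224 to 3365 and 3105, although Rplp0 (-0.89) fell. Solute carriers were lower in 63 of 100 called cases, from Slc28a1 (-2.92) to Slc41a2 (3.51).

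**Figure D4:**
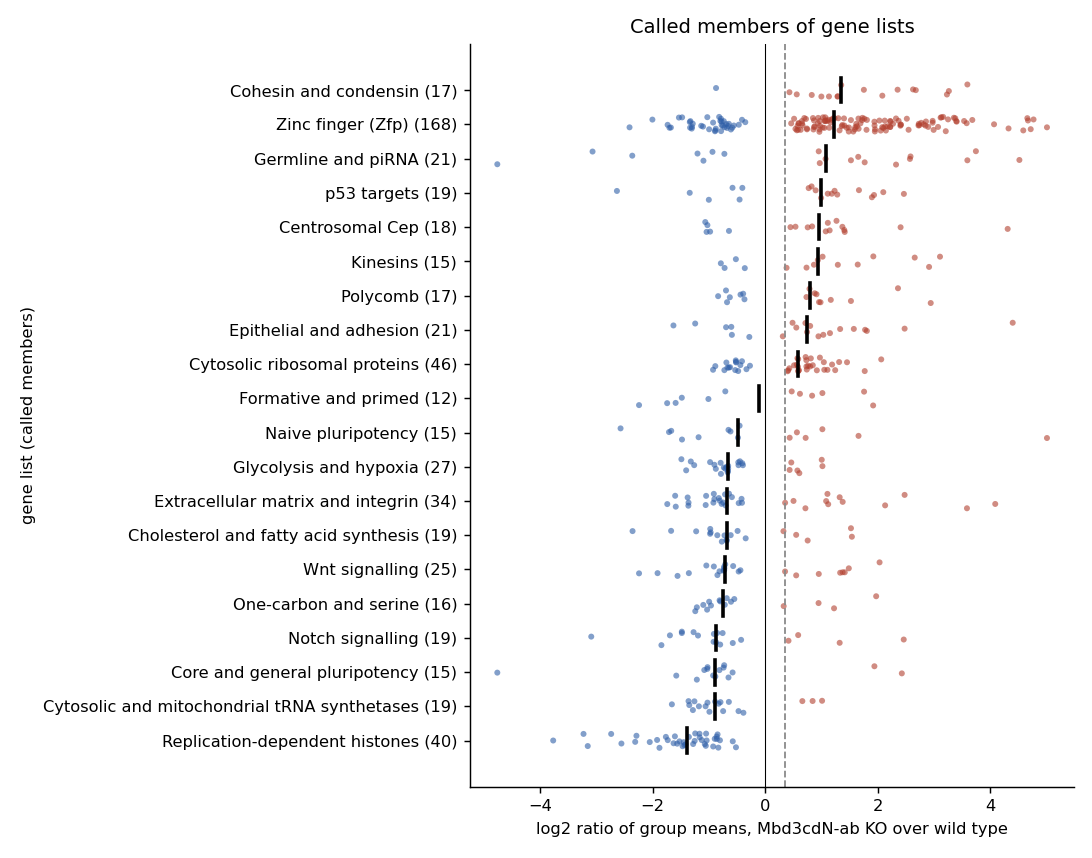
Log2 ratio of group means (mutant over wild type) of every called member with a ratio in 20 gene lists, with the number of called members in brackets, black bars for list medians and a dashed grey line for the median of all called genes (0.35). Medians run from -1.38 in histones, where no member is above 0, to 1.35 in cohesin and condensin, and most lists hold members on both sides.

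Direction went closely with the base composition of the transcript. GC content was computed for 5932 called genes (99.0%), and over the 5 classes of rising GC the share higher in the mutant was 99.1%, 93.0%, 41.7%, 14.2% and 6.15%. The median log2 ratio passed from 1.37 in the lowest class to -0.93 in the highest. Between the 2 wild type libraries the corresponding medians stayed between -0.06 and 0.03, and between the 2 mutant libraries between 0.03 and 0.19, highest in the class of lowest GC. Medians within a group do not measure a difference in library preparation between the groups. The labels do not tie the kits for ribosomal RNA removal to libraries, so preparation and genotype cannot be told apart here. Splitting each class by transcript length moved the share higher by at most 3.04 percentage points.

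Lists that were mainly higher had low median GC (41.9% for cohesin and condensin, 40.8% for Zfp genes, 45.3% for germline) and lists that were mainly lower had high median GC (57.2% for histones, 55.7% for Notch, 54.8% for core pluripotency, 53.3% for tRNA synthetases), against 50.8% over all called genes. The part of base composition in these differences was not tested. Leanings of lists given without counts by GC class are not read as traits of those lists. Genes that moved against the tendency were Gm20594, at 34.97% GC the lowest ratio of all, Dppa3 (45.3%, lower), and Col4a1 (57.7%) and Col4a2 (60.6%), both higher. Krt8 (57.1%, higher) and Mbd2 (56.5%, higher) also lay against it, as did the histone genes of low GC.

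**Figure D5:**
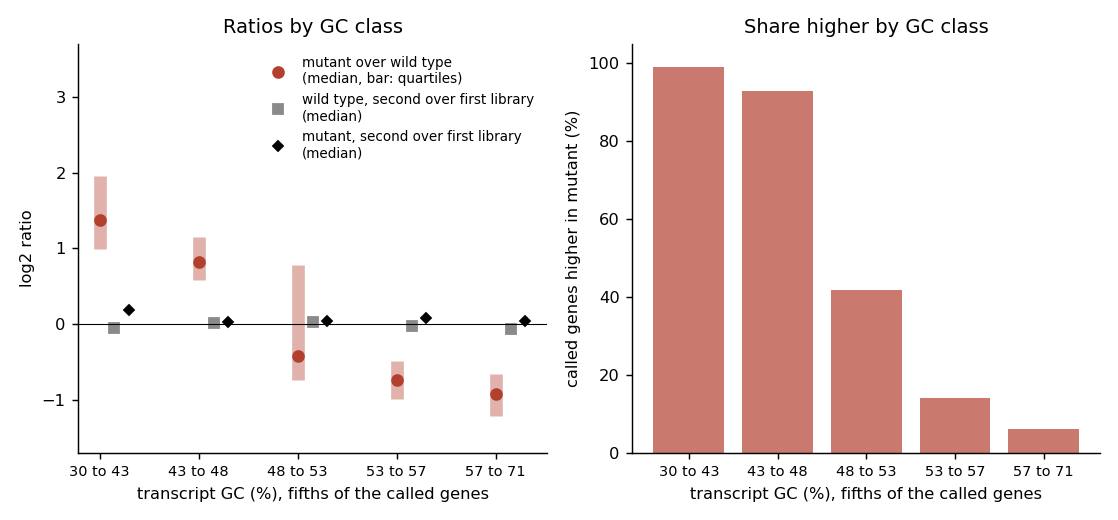
Left, median log2 ratio of the mutant over wild type with quartiles (red) and median log2 ratio between the 2 libraries of each group (grey squares wild type, black diamonds mutant) in 5 classes of transcript GC content; right, the share of called genes that were higher in the mutant. The share higher falls from 99.1% to 6.15%. The within-group medians stay within 0.19 of 0 and do not measure a difference in library preparation between the groups.

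Transcript length and chromosome showed weaker gradients of the same kind. In 5 classes of rising length the share higher went from 38.3% to 64.6%. By chromosome it ran from 25.2% on chromosome 11 (median GC 54.2%) to 76.5% on chromosome 18 (median GC 45.6%) among those with more than 3 called genes. All 3 called genes placed on the Y chromosome were lower, among them Eif2s3y, at 92.9 and 119 in wild type and 21.7 and 5.08 in the mutant, and Uba1y (-2.51), with the second mutant library below the first in both cases.

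At the edge of the call, Npm1 (log2 ratio 0.47), Anapc13 (0.53) and Ptprn (-0.85) lay just under an adjusted p of 0.05 in the authors' deposited DESeq2 table. The 11 listed genes just over it, up to 0.0505, included Abr (-0.39), Iars2 (0.30), Kitl (1.56) and Lrrc15 (-1.87), and were not counted as called.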

How the data were processed

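Stranded RNA-seq libraries of rRNA-depleted total RNA were compared, 2 of the mutant and 2 of wild type. The submitters' processing notes name TopHat2, HOMER, DESeq2 and mm10; they give no versions or settings. The authors deposited a normalized read signal per gene and library, a log2 fold change with its standard error and an adjusted p-value from DESeq2, per the file headers, for listed genes only. Column names give the group but not the replicate number. Every signal value of the 6000 listed genes was a whole number of reads times a library factor within 0.006 (100%), and the number of tested genes, 14429, was recovered from the adjusted p-values.

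From these values the log2 ratio of group means was computed where each group had more than 3 reads. A gene was called at a deposited adjusted p under 0.05. GC content, length and overlaps used GENCODE M21 (99.0% of called genes matched). Refits on the recovered reads used R 4.3.3 with DESeq2 1.42.0, edgeR 4.0.16 and limma 3.58.1, and were tested on simulated data. Tables were made with Python 3.11.15. The members and the 58 gene lists were chosen with earlier results of these data known. Lists are described by counts and medians beside those of all called genes.

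Named are the 12 highest and 12 lowest ratios at or above the median level, up to 4 called members at each end of each list, all listed NuRD, COMPASS, core pluripotency and Polycomb genes, the extremes of each RNA class and level class, the 5 most read genes in each direction, genes at the edge of the call and genes in runs. Further genes, such as Nipbl, Stag2, Klf2, Klf5, Slc2a1, Trp53, Cldn7, Fzd9, H3f3a, H2afv, H2afx, Acvr2b, Lefty2, Uba1y and single histone, snoRNA and miRNA genes, were named after their values were seen. Lists without a called gene were mesoderm, MERVL and 2-cell genes, and mitochondrial transcripts. No column belonged to a sample outside the series. Some genes that this rule names are not reported here.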

Additional observations from a re-analysis of the deposited data

How the results depend on the processing

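The counts of 3051 higher and 2938 lower genes became 1655 and 990 at 2-fold or more, and 1301 and 1696 at or above the median level, both by construction. Refits could lose but not add genes, since only listed genes were refitted: DESeq2 called 2405 and 2242, edgeR 2838 and 2671, limma 2816 and 2714. Scaling DESeq2 by library totals, which moves the median log2 ratio by 0.10, gave 2661 higher and 1857 lower. Leaving out 1 library gave 1013 to 1841 higher and 596 to 1957 lower, with fewer samples in each fit and the lone library assumed to vary like the other group. No refit call was opposite in direction to the deposited one (0 genes). Of 4173 recomputed ratios and medians, 3735 stayed within 1 SD, 432 moved further in the same direction and 6 reversed, all of these list medians; the cause was not tested. The median log2 ratio of all called genes also reversed, from 0.35 to -0.24 without the second wild type library, and was 0.29 to 0.33 without each of the others. In that reversal higher genes of few wild type reads lost their ratio, and no gene changed direction. With a pseudocount of 1 the primitive endoderm median was 0.34 and the cyclin median 0.14. That setting also takes in called genes without a ratio, so these medians cover 8 rather than 7 and 26 rather than 25 genes. The median log2 ratio of Mediator (-0.012) was 0.089 scaled by library totals and -0.0604 to 0.0226 with 1 library left out, positive without the second mutant library. The median log2 ratio of Tripartite motif (0.0143) ranged from -0.0282 to 0.0625 with 1 library left out, negative without the second mutant (-0.0282) and the first wild type library (-0.00432). No paired analysis was possible because the labels give no pairing between wild type and mutant libraries. With 2 libraries a group, an exact two-sided permutation test of 1 gene cannot go below p = 0.33.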
